A study of Mus musculus with 9 samples.

Results

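The genes described here build the cilium. They are 46 mouse genes, taken by gene symbol: 5 transcription or cell cycle factors of ciliogenesis, the structural proteins of the axoneme that make a cilium beat, the intraflagellar transport (IFT) particles B and A, their motors, the BBSome and the ciliary GTPase Arl13b. All 46 were found by symbol and filled 47 of the 23332 gene rows of the tables, since Ccdc40 stood in 2 rows. The samples are FVB MOE cells, a line of oviductal epithelium from the FVB mouse strain, the oviduct being the mouse equivalent of the fallopian tube. The study describes the line as a single clone of secretory cells, so that the samples stand for 1 clone and are described as free of ciliated cells. All cells were starved of hormone for 48 h and then kept for 24 h with 0.1% DMSO as the solvent, with 1 nM 17-beta-estradiol (E2, the main natural estrogen) or with 100 nM 4-hydroxytamoxifen (4OHT, a selective estrogen receptor modulator), with 3 samples for each condition. The comparisons ask which transcripts respond to the estrogen receptor's ligands in this cell type.

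A primary cilium is a single, immotile antenna that many cell types carry and that receives signals such as hedgehog. A motile cilium shares its transport machinery but adds dynein arms, radial spokes and a central pair apparatus, and in the oviduct it is borne in large numbers by the ciliated cells that stand between the secretory cells. Foxj1, with the RFX factors, drives the genes of the motile axoneme, while the IFT particles carry cargo along any cilium, kinesin-2 moving them outward and cytoplasmic dynein 2 bringing them back.

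Expression is given as FPKM, a unit that divides a gene's fragments by its length and by the depth of the library, so that levels can be compared between genes. Depth, inferred from the value that 1 read is worth, was about 34.6 to 49.2 M reads a sample (DMSO 41.9 to 49.2, E2 36.2 to 45.9, 4OHT 34.6 to 40.1). Deviations from the condition means correlated between samples of equal replicate number, at 0.523 to 0.828 across 11094 rows, so each comparison is also given with the replicate number as a block. The labels do not say whether replicates are separate cultures, so that p-values measure the spread between these samples, which may be technical. Of the secretory oviduct markers, Pax8 lay between 105 and 150 FPKM and Krt18 between 428 and 799, but Ovgp1, the oviduct glycoprotein, only reached 2.61, and the epithelial adhesion genes Epcam and Cdh1 did not exceed 0.138 and 0.422. Of the stromal markers Vim, usually mesenchymal, was at 1641 FPKM or more and Col1a1 at 1.84 to 6.73, while Pdgfra, Col3a1 and Dpt did not exceed 0.111. The mesothelial genes Msln, Wt1 and Upk3b were all expressed, at 99.1 to 188, 26.3 to 45.3 and 1.31 to 3.51. Ptprc, Cd3e, Pecam1 and Des, which mark leukocytes, endothelium and muscle, did not exceed 0.0783, and Cdh5 and Myh11 of the same lists did not exceed 0.100 and 0.305. Other genes of those marker lists were expressed, with Acta2 at 932 to 1724 FPKM, Cnn1 at 10.03 to 36.5, Cd68 at 3.01 to 4.01 and Kdr at 0.445 to 1.28. Kdr reached 1 FPKM only in E2 (1.01 to 1.28), with 0.445 to 0.711 in DMSO and 0.625 to 0.754 in 4OHT. The secretory list was thus split, with Pax8 and the keratins high, Esr1 at 5.25 to 16.3 FPKM, Ovgp1 low and Epcam and Cdh1 lower still. In bulk RNA, fewer cells of a type and less RNA per cell cannot be told apart.

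The data divided the cilium genes by function. A row was called expressed with at least 1 FPKM in at least 3 samples, silent with less than 0.1 FPKM in all 9 samples, and weak otherwise. Of the 47 rows, 33 were expressed, 8 weak and 6 silent, against 48.6%, 13.0% and 38.4% of all gene rows. The 25 rows of the transport machinery, the BBSome and Arl13b were expressed in 24 cases, with a median of mean levels of 8.70 FPKM. The 22 rows of factors and axoneme were expressed in 9 cases (40.9%), weak in 7 (31.8%) and silent in 6 (27.3%), with a median of 0.110 FPKM. Among these 9 is a row of Ccdc40 whose identity is uncertain, as described below. Beside all gene rows, factors and axoneme held a lower share of expressed rows (40.9% against 48.6%) and also of silent rows (27.3% against 38.4%). The split is a description of this line, with no test.

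**Figure D1:**
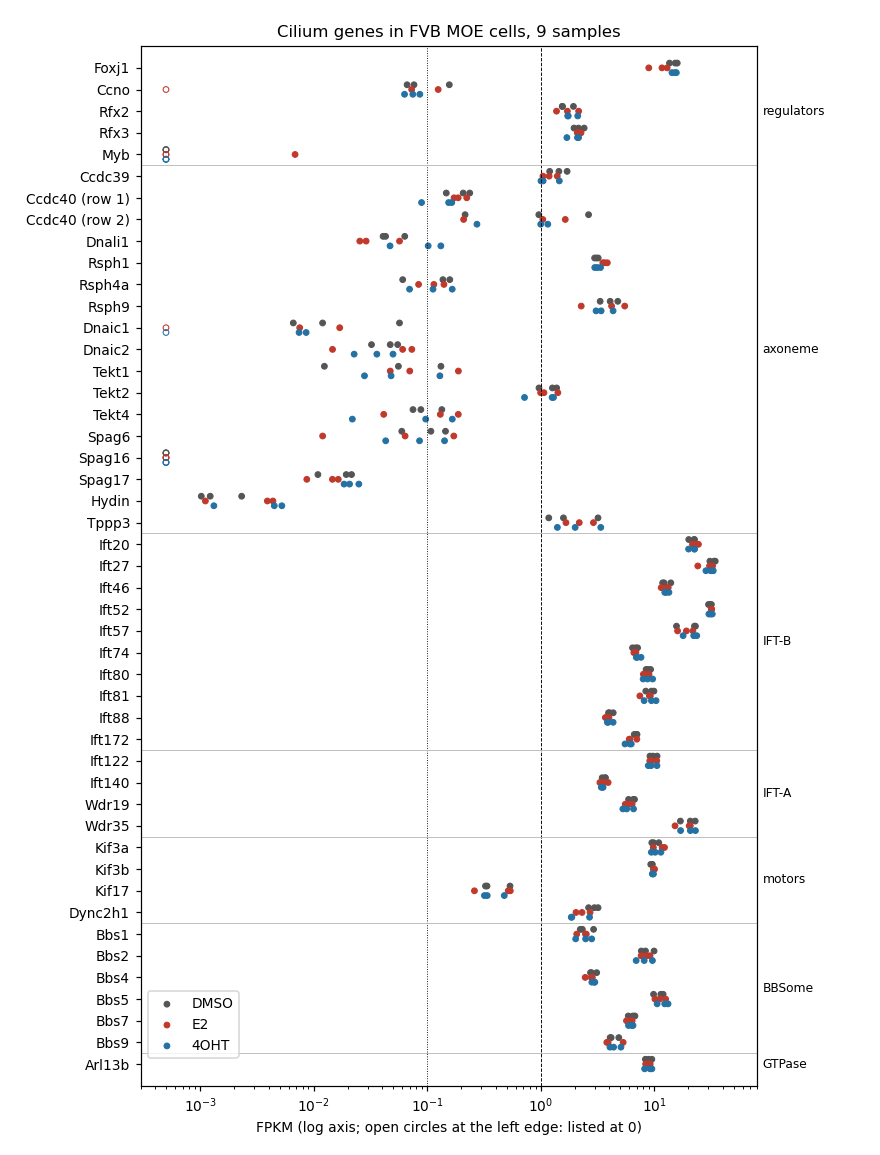
FPKM on a log axis (horizontal) of the 47 rows of cilium genes (vertical, grouped by role) in the 9 samples, coloured by condition; the dashed and dotted lines mark 1 and 0.1 FPKM. Transport genes sit to the right of the 1 FPKM line except Kif17, while 7 weak and 6 silent rows of factors and axoneme lie to the left of it, Spag16 among them at the edge, listed at 0.

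The silent genes were 5 of the axoneme and 1 of the factors. Spag16, a protein of the central apparatus, was listed at 0 in all 9 samples. In these tables a 0 can be a missing estimate, since expressed genes are also listed at 0 in single samples and Nphp4, of the transition zone, in all 9, so that for Spag16 the class rests on the listing alone. Hydin, a large protein of the same apparatus, lay between 0.00102 and 0.00524 FPKM, about 0.794 to 3.28 reads a sample, and Spag17 between 0.0087 and 0.0250. Dnaic1 and Dnaic2, the intermediate chains of the outer dynein arm, did not exceed 0.0570 and 0.0732. Dnaic1 was listed at 0 in E2 replicate 3 and 4OHT replicate 1. Among the factors, Myb, which acts early in multiciliated precursors, was listed at 0 in 8 samples and at 0.00686 in E2 replicate 2, about 1.01 reads. The 5 silent genes other than Spag16 did not exceed about 8.01 reads in any sample, and a change of their level was not detectable at this depth.

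A further 8 rows were weak. Ccno, the cyclin that multiplies centrioles in multiciliated cells, reached 0.157 FPKM and was listed at 0 in E2 replicate 1. The inner arm dynein chain Dnali1, the radial spoke head protein Rsph4a and the tektins Tekt1 and Tekt4, which are filaments inside the doublet microtubules, peaked at 0.132, 0.166, 0.188 and 0.188. Spag6 peaked at 0.171 and is uncertain, since it shares near-identical sequence with Spag6l. Its row stands among genes of chromosome 16, between Ift57 and Arl13b, whereas Spag6 lies on chromosome 2. The value may thus be that of Spag6l. One of the rows of Ccdc40 ranged from 0.0892 to 0.237 and Kif17, a kinesin-2 that acts as a homodimer, from 0.261 to 0.540. Kif17 gave the most reads of the weak rows, about 86.9 in the highest sample. None of the 33 expressed rows held an exact 0. In the series, 299 gene rows had one beside nonzero values with a median of at least 1 FPKM, and 242 of these were among the 11339 expressed rows.

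The axoneme genes that were expressed were few and mostly low. Rsph9 and Rsph1, both of the radial spoke head, ran from 2.27 to 5.49 and from 2.98 to 3.86 FPKM, and Tppp3, a tubulin-binding protein abundant in ciliated cells, from 1.18 to 3.38. Ccdc39, the partner of Ccdc40 in setting the axoneme's repeat, ran from 1.00 to 1.71 and Tekt2 from 0.720 to 1.41. The other row of Ccdc40 had no order by condition, at 2.64, 0.962 and 0.216 FPKM in DMSO, 1.04, 1.64 and 0.209 in E2 and 1.00, 0.274 and 1.15 in 4OHT. Which transcript each row of Ccdc40 stands for was not resolved. The rows are ordered by chromosome and strand, and Ccdc40 lies on the plus strand of chromosome 11. Its weak row stands among plus-strand genes, but this other row follows Foxj1, among minus-strand genes. It may therefore not measure the usual Ccdc40 transcript. This row was just inside the expressed class and is kept in the counts and fits.

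Foxj1 was the most abundant factor, with 8.95 to 15.9 FPKM, above Rfx3 (1.70 to 2.41) and Rfx2 (1.38 to 2.16), whose ranges overlapped. The gene lies on chromosome 11 (mm10, chr11:116330704-116335399, minus strand). Within IFT-B, which moves outward, the highest levels were those of Ift27, a small GTPase (24.2 to 34.4), Ift52 (30.0 to 32.4), Ift20 (20.1 to 24.5) and Ift57 (15.7 to 23.7), and the lowest that of Ift88 (3.71 to 4.35). Within IFT-A, Wdr35 led (15.2 to 23.0) and Ift140 was lowest (3.32 to 3.92). The motor subunits Kif3a (9.43 to 12.3) and Kif3b (9.31 to 10.1) overlapped, and Dync2h1, the heavy chain of the return motor, was at 1.86 to 3.20. In the BBSome, a coat that sorts membrane cargo, Bbs5 was highest (9.86 to 13.2) and Bbs1 lowest (2.03 to 2.92). Arl13b, a GTPase of the ciliary membrane, stood at 8.22 to 9.53.

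Promoter sequences were read from RefSeq (GRCm38.p6) in a window of 250 bases before the gene's start, on both strands. An entry was found for 39 of the 46 genes; Foxj1, Ift122, Ift80, Ift81, Rsph1, Rsph4a and Tppp3 had none. The core GTTGCC of the X-box, the site that RFX factors bind, occurred in 15 of the 39 (38.5%) and in 3195 of the 27025 genes with a promoter entry (11.8%). It occurred in 8 of 17 factor and axoneme promoters (47.1%) and in 7 of 22 transport promoters (31.8%), in 8 of the 27 expressed genes (29.6%), in 4 of the 6 weak ones and in 3 of the 6 silent ones. The match counted for weak Spag6 is in the promoter on chromosome 2, a gene that its expression row may not measure. The estrogen response element palindrome GGTCANNNTGACC occurred in none of the 39 and in 18 of the 27025 genes (0.0666%). A match describes letters only. The promoters below, read on the gene's strand, set silent Spag16 and Hydin and weak Tekt1 beside expressed Rfx2, Ift57 and Kif3a, with GTTGCC or its reverse complement GGCAAC in capitals.
Spag16, chr1:69826819-69826912, plus strand: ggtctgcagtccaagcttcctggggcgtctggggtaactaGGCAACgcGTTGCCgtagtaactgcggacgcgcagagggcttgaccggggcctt
Hydin, chr8:110266924-110266976, plus strand: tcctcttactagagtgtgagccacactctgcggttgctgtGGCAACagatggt
Tekt1, chr11:72361883-72361957, minus strand: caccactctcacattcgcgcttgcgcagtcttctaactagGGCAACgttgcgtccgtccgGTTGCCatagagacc
Rfx2, chr17:56831079-56831164, minus strand: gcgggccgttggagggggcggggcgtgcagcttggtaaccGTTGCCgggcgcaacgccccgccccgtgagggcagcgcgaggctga
Ift57, chr16:49699167-49699279, plus strand: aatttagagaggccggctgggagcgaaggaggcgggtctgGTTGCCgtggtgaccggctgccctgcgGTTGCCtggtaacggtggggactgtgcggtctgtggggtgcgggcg
Kif3a, chr11:53567231-53567316, plus strand: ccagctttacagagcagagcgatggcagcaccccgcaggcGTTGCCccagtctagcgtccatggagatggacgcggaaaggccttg
Spag16, Tekt1 and Ift57 carry the core in 2 places and Hydin, Rfx2 and Kif3a in 1, so that both classes hold single and paired matches.

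With E2, Foxj1 was lower than in DMSO. It measured 13.6, 15.3 and 15.9 FPKM in DMSO replicates 1 to 3 and 8.95, 11.7 and 13.0 in E2. The samples of both groups did not overlap, and E2 replicate 1 was the lowest of all 9. The mean fell from 14.9 ± 1.20 (SD, n = 3) to 11.2 ± 2.06, a difference of -25.0%, and by 0.40 on the log2(FPKM + 1) scale with an SE of 0.12 (limma, adjusted p = 0.269). With the replicate block the SE was 0.066 and the limma adjusted p 0.00493, with pairs of -0.56, -0.36 and -0.28. The call rests on the pairing, since it was made in 16 of 16 settings fitted with the block and in 0 of 18 without it. Its size depended on E2 replicate 1, without which the log2 change was -0.26 without the block and -0.30 with it, and it ran from -0.50 to -0.26 over all settings. Foxj1 was read about 849 to 1973 times a sample, so that counting error was at most 3.43%. The other 8 rows of the ciliated cell markers summed to 5.31 to 7.27 FPKM in E2, 5.31 to 7.39 in DMSO and 4.77 to 6.32 in 4OHT, ranges that overlapped. These sums consist mostly of Rsph1, Ccdc39 and the uneven row of Ccdc40. Rsph1 was higher in E2 (3.52 to 3.86) than in DMSO (2.98 to 3.21), and the Ccdc40 row gave 2.64 in DMSO replicate 1. The overlap therefore does not show that the single markers were steady. The summed level of the secretory list, led by the keratins, was 2165 to 2327 FPKM in E2, 1266 to 1397 in DMSO and 1352 to 1492 in 4OHT, and its part in the Foxj1 result was not tested.

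Rsph1 moved the other way. It measured 3.10, 3.21 and 2.98 FPKM in DMSO and 3.65, 3.86 and 3.52 in E2, with every E2 sample above every DMSO sample. The mean rose by 18.7%, or 0.19 on the log2 scale (SE 0.064, limma adjusted p = 0.313 without the block, 0.0428 with it). That call is weak, since Rsph1 passed in 3 of 16 settings with the block and gave only about 130 to 192 reads a sample, where counting error reaches 8.78%. Kif3a measured 9.51, 9.85 and 11.0 FPKM in DMSO and 9.81, 11.7 and 12.3 in E2, higher in all 3 pairs with overlapping groups (limma log2 0.14, adjusted p = 0.0607 with the block). Dync2h1 measured 2.64, 2.97 and 3.20 FPKM in DMSO and 2.04, 2.72 and 2.31 in E2, lower in all 3 pairs (limma log2 -0.23, adjusted p = 0.110 with the block). Neither passed with all samples. With the block, Kif3a passed in 1 of 16 settings (without E2 replicate 1, limma adjusted p = 0.0390) and Dync2h1 in 1 of 16 (without E2 replicate 2, limma adjusted p = 0.0360).

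**Figure D2:**
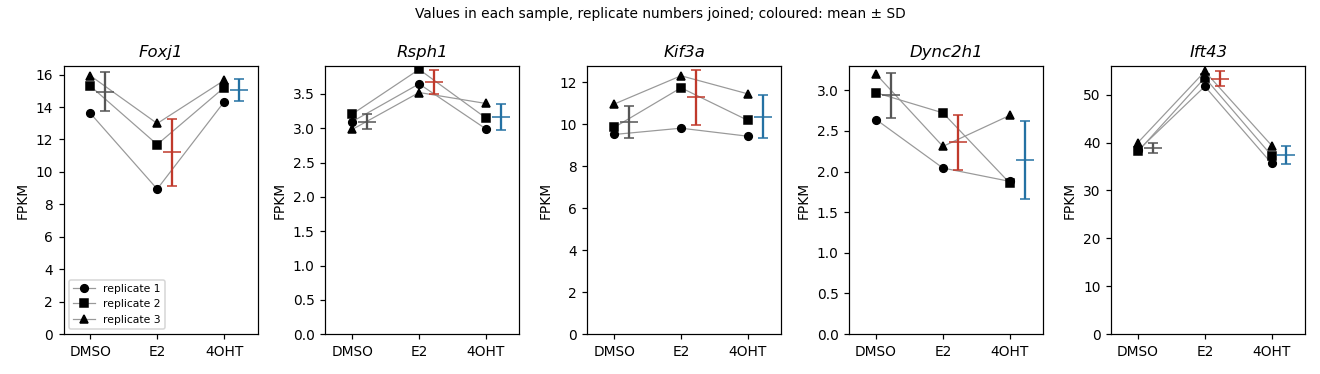
FPKM (vertical, from 0) of Foxj1, Rsph1, Kif3a, Dync2h1 and Ift43 in DMSO, E2 and 4OHT (horizontal); black points are samples, grey lines join equal replicate numbers and coloured bars give the mean ± SD of 3 samples. E2 holds the lowest Foxj1 values, 8.95 to 13.0, and the highest Ift43 values, 51.7 to 54.8.

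As a list, the share of cilium genes called with E2 was not above that of all rows. Without the block, 0 of the 33 expressed rows passed in limma at an adjusted p under 0.05, where 69 of 11250 rows did (0.613%), and 2 of the 33 had an unadjusted p under 0.05 (6.06%, against 1236 of 11250 rows or 11.0%). With the block 2 of 33 passed (6.06%), against 2121 of 11250 (18.9%). Their median log2 change was -0.030, and that of all rows -0.0022. The 33 rows split into 9 with a positive and 24 with a negative change, against 5545 and 5705 of all rows. By role, E2 gave a negative median in IFT-B (-0.071), IFT-A (-0.050) and the BBSome (-0.040) and a positive one in the 3 motor rows (0.060), with none of these rows passing in either fit. Lower in all 3 pairs were 9 rows (27.3%, against 24.6% of all rows), namely Foxj1, Wdr35, Ift88, Ift27, Ccdc39, Ift80, Ift172, Ift81 and Dync2h1. Higher in all 3 were Kif3a, Ift20, Rsph1 and Kif3b (12.1%, against 28.4%). Rows without overlap between groups were Foxj1 below (3.03%, background 6.13%) and Rsph1 and Kif3b above (6.06%, background 9.17%).

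**Figure D3:**
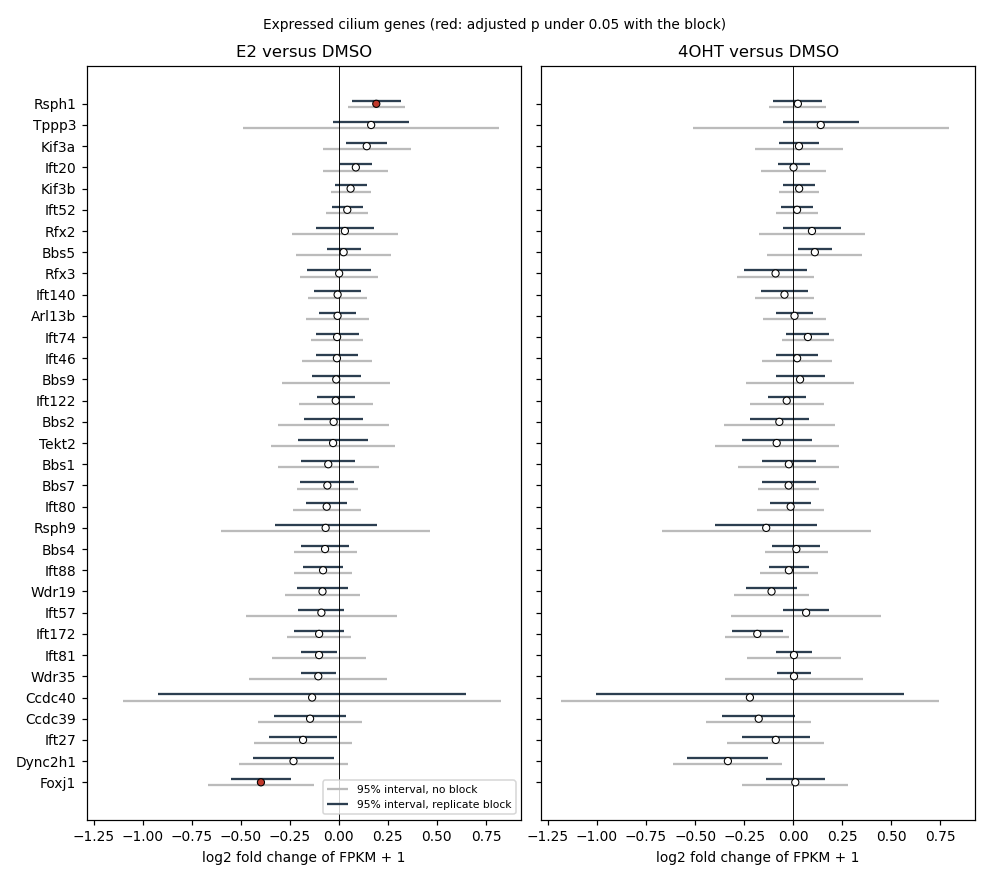
Log2 fold changes of FPKM + 1 (horizontal) of the 33 expressed rows for E2 and 4OHT against DMSO, with 95% intervals from limma without (grey) and with (dark) the replicate block; red points have an adjusted p under 0.05 with the block. Foxj1 at -0.40 and Rsph1 at 0.19 are the red points, both in E2.

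No cilium gene passed the test for 4OHT against DMSO. None of the 33 rows passed without or with the block (limma), where 0 of 11250 rows (0%) and 7 (0.0622%) did, while 2 members had an unadjusted p under 0.05 without it (6.06%, against 289 of 11250 rows or 2.57%). Foxj1 measured 14.3, 15.2 and 15.6 FPKM in 4OHT, inside the range of DMSO, with a mean of 15.1 ± 0.675 (SD, n = 3), a log2 difference of 0.011 and a 95% interval with the block of -0.14 to 0.16. The 2 members with the smallest p-values were transport genes. Dync2h1 measured 1.88, 1.86 and 2.69 FPKM in 4OHT, a log2 difference of -0.33 (SE 0.12) that is 0.276 as a limma adjusted p with the block, with 4OHT replicate 3 inside the range of DMSO. Ift172, an IFT-B subunit, measured 7.01, 7.04 and 6.66 FPKM in DMSO and 5.52, 6.11 and 6.27 in 4OHT, all lower, a log2 difference of -0.18 with a limma adjusted p of 0.301 with the block. It was the only member with all 4OHT samples below DMSO (background 3.53%), and Kif3b the only one with all above (background 4.36%). In all 3 pairs, 6 members were higher (18.2%, against 30.5% of all rows) and 6 lower (18.2%, against 15.7%).

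Between the ligands, Foxj1 was again the gene that differed. It was lower with E2 than with 4OHT by 0.41 on the log2 scale (SE 0.12, limma adjusted p = 0.284 without the block and 0.00505 with it), in all 3 pairs. Without E2 replicate 1 the difference was -0.27, and -0.32 with the block. This comparison shares its E2 samples with the one against DMSO, so that both draw on the same low E2 values. Of the 33 rows, 0 passed in limma without the block (0.347% of all rows did), 2 had an unadjusted p under 0.05 (6.06%, against 11.8%) and 1 with it (3.03%, against 22.2%). Rsph1 was higher in E2 by 0.17, with a limma adjusted p of 0.0591 with the block. The samples of E2 and 4OHT did not overlap for Foxj1 and Ift74, lower in E2 (background 10.1%), and for Rsph1, higher in E2 (background 8.41%). In all 3 pairs, 9 members were lower in E2 (27.3%, against 31.3% of all rows) and 4 higher (12.1%, against 24.5%).

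The samples also divided by replicate number. All 3 samples numbered 1 lay below every other sample for 9 of the 33 rows (27.3%, against 10.2% of 11097 rows), namely Kif3a, Wdr35, Ift57, Arl13b, Rsph9, Bbs1, Bbs5, Tekt2 and Ift81. Those numbered 3 lay above every other sample for 8 (24.2%, against 6.43%), namely Rsph9, Rfx2, Bbs1, Ift80, Ift122, Bbs2, Tppp3 and Bbs9. Tppp3, on the second of these lists, measured 1.18, 1.67 and 1.40 FPKM in replicate 1, 1.58, 2.18 and 2.01 in replicate 2 and 3.19, 2.91 and 3.38 in replicate 3, in the order DMSO, E2, 4OHT. Replicate 1 was above all others for Ift46 alone (background 10.8%), replicate 2 below for Ift20 alone (5.02%) and above for no member (4.15%), and replicate 3 below for none (4.68%). What the numbers stand for is not given in the sources used here.

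**Figure D4:**
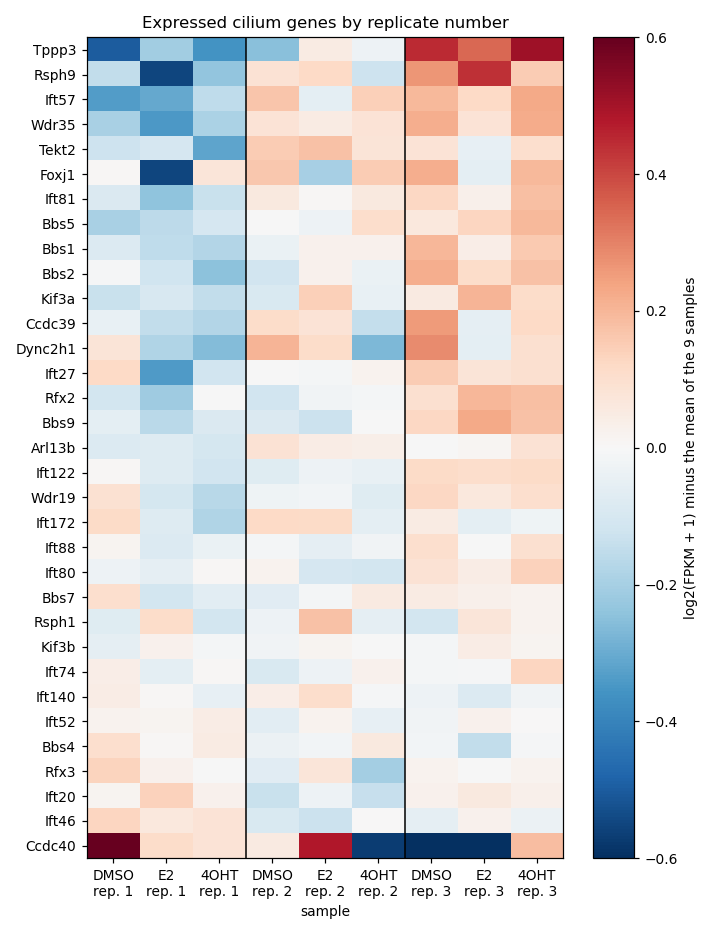
Log2(FPKM + 1) of the 33 expressed rows (vertical) minus the mean of the 9 samples, as colour, in the samples ordered by replicate number and then condition (horizontal). In 9 rows all replicate 1 samples are the lowest and in 8 rows all replicate 3 samples the highest, and Foxj1 is bluest in E2 replicate 1.

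The wider ciliary lists also differed in their levels. Of 49 rows of other motile cilium genes, 18 were expressed (36.7%), 11 weak (22.4%) and 20 silent (40.8%). Of all gene rows, 48.6% were expressed, 13% weak and 38.4% silent, so the silent share of this list was close to that of all rows. Mcidas and Gmnc, which start the multiciliated programme, were silent (at most 0.0725 FPKM, and listed at 0 in all 9 samples). Of the listed dynein heavy chains, Dnah9 and Dnah11 were lowest and reached at most 0.00755 and 0.00143. Dnah1, Dnah2 and Dnah7a were also silent, at most 0.0795. Dnah5, Dnah6, Dnah7b and Dnah10 were weak, with peaks from 0.145 to 0.167. Among the expressed rows, Heatr2 lay at 20.8 to 27.7 FPKM, Gas8 at 13.3 to 16.9, Rsph3a at 15.1 to 16.7 and Dnal1 at 5.81 to 8.30. Others were near 1 FPKM, such as Ccdc65 (0.540 to 1.24). E2f4 and E2f5, which have uses outside cilia, lay at 38.2 to 51.7 and 15.8 to 18.5 FPKM. Tfdp1, their dimer partner, was listed at 0 in 4OHT replicate 2 and measured 107 to 138 in the other samples, so that this 0 was set apart. All 26 rows of other IFT and BBSome genes were expressed, as were 37 of 39 rows of the transition zone and basal body and 7 of 7 of cilium disassembly. Of 16 hedgehog genes, 8 were expressed (50%, against 48.6% of all gene rows). Among them were the membrane transducer Smo (45.9 to 54.7) and the factor Gli3 (4.33 to 5.35). The ligand Shh and the factor Gli2 were listed at 0 in all 9 samples, which can be a missing estimate. Gli1, a target of the pathway, reached 0.144.

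Of the genes on the member and ciliary lists, Ift43 alone passed without the block, and it is a subunit of IFT-A that stands in the tables as 1700019E19Rik. It measured 38.3, 38.1 and 39.996 FPKM in DMSO, 51.7, 53.5 and 54.8 in E2 and 35.6, 37.2 and 39.4 in 4OHT. E2 stood clear above both other groups. The log2 change for E2 was 0.45 against DMSO (SE 0.053, limma adjusted p = 0.0109, and 0.00011 with the block) and 0.50 against 4OHT (limma adjusted p = 0.0170). No row of the 4 IFT-A members passed in any comparison. With the block, E2 against DMSO also called Nedd9, a scaffold that activates Aurora A in cilium disassembly and also acts in cell adhesion, at 7.72, 4.30 and 5.48 FPKM in DMSO and 11.8, 8.22 and 9.36 in E2 (log2 0.68, limma adjusted p = 0.000167). Its groups did not overlap. Also called were Cdon, a hedgehog co-receptor (0.27), and, downward, Bbs12, Arl6, Tctn3, Odf2, Fbf1, Ccp110, Nek2 and Ptch1, whose log2 changes ran from -0.29 to -0.16. These are 3 of 26 rows of other IFT and BBSome genes, 4 of 37 of the transition zone and basal body, 2 of 7 of disassembly, 2 of 8 of hedgehog and 0 of 18 of other motile cilium genes, beside 18.9% of all rows. E2 against 4OHT called 5, 4, 2, 3 and 2 rows of the same lists with the block, beside 22.2% of all rows, and 4OHT against DMSO called 0.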

How the data were processed

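RNA was sequenced from 9 samples of FVB MOE cells, grouped and numbered by their labels. The authors aligned reads to mm10 with TopHat2 (2.0.8b) and computed FPKM with Cufflinks and Cuffdiff (2.1.1), and these FPKM are the deposited values; no counts were used here, and a further scaling between libraries is not given in the sources used here. The members and lists were chosen with earlier results of these data known.

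Log2(FPKM + 1) was fitted over 9 samples with limma 3.58.1 in R 4.3.3, with a trend, over rows with at least 1 FPKM in at least 3 samples, and adjusted by Benjamini-Hochberg (threshold 0.05). An exact 0 was missing where the median of the row's nonzero values was at least 1 FPKM. Rows needed 2 values in each condition, which left 11250. Same-numbered samples correlated in all 9 pairs (mean 0.69 over 11094 rows), so their numbers were taken to pair the samples, and a fit with the replicate block is given beside the first. Depth and reads per gene are approximate, since they were inferred from FPKM steps and the longest GENCODE transcript, and counting errors cover counting only. Alternatives were another pseudocount, no filter, zeros kept, upper-quartile scaling, 6 samples only and leaving samples out. Named genes were, by rule, all members and, from 5 ciliary lists, the called genes and the largest change in each direction; other list genes named for their level were chosen after their values were seen. The fit was also run on simulated data, with set changes larger than those of any member, so that run does not bear on the members' calls. Coordinates are those of GENCODE on GRCm38.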

Additional observations from a re-analysis of the deposited data

How the results depend on the processing

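The replicate block was the choice that mattered. It gave 2 members for E2 against DMSO (Foxj1, Rsph1) and 1 for E2 against 4OHT (Foxj1), and all-row counts of 2121 for E2 against DMSO, 7 for 4OHT against DMSO and 2499 for E2 against 4OHT, against 69, 0 and 39 without it. With the block and zeros kept the counts were 1702 and 1840 for the E2 comparisons, and members called 1 and 1, and 4OHT against DMSO called 0 rows. Settings added after the data were seen, the block with a pseudocount of 0.1 or with upper-quartile scaling, gave 2 and 1 members for E2 against DMSO and 1 and 1 for E2 against 4OHT. Without the block, 0 members passed in any setting. E2 against DMSO then called 45 rows with no filter and 20 with 6 samples, and E2 against 4OHT 11, 17 and, with zeros kept, 18. Leaving out 1 sample gave 14 to 92 rows for E2 against DMSO and 0 to 62 for E2 against 4OHT, and leaving out a replicate number 0 to 183 and 0 to 95, with 0 without replicate 2 or 3 and the most without replicate 1. For 4OHT against DMSO it gave 0 throughout.

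Members with the block ranged from 1 to 3 for E2 against DMSO and 1 to 2 for E2 against 4OHT on leaving samples out; Foxj1 was among them each time, and Rsph1 dropped out except without 4OHT replicate 3. Leaving samples out added, for E2 against DMSO, Kif3a (without E2 replicate 1), Wdr35 and Dync2h1 (without E2 replicate 2) and Tppp3 (without E2 replicate 3), and for E2 against 4OHT Ift57 (without DMSO replicate 1 or 2), Rsph9 (without E2 replicate 1), Wdr35 (without E2 replicate 2) and Rsph1 (without 4OHT replicate 3). The log2 change of Foxj1 between 4OHT and DMSO, near 0 throughout, was -0.0094 with upper-quartile scaling (with and without the block) and -0.050 to 0.056 without single samples. It turned negative without DMSO replicate 1 (-0.050), 4OHT replicate 3 (-0.015) or replicate 1 (-0.017 in both fits), and with the block without DMSO replicate 3 (-0.010) or 4OHT replicate 1 (-0.056). The cause was not tested. Expressed rows numbered 29 to 34 and silent rows 4 to 12 with other thresholds (12 at 0.2 FPKM), and 32 to 33 and 6 to 7 without a replicate number. With all samples, the block changed no other member's call. Genes with few reads are limited by counting.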
